A study of Mus musculus with 9 samples.

Results

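The genes described here are B2m and 8 heavy chain genes of the mouse major histocompatibility complex (MHC) class I family: the classical genes H2-K1 and H2-D1 and the nonclassical genes H2-Q4, H2-Q6, H2-Q7, H2-T22, H2-T23 and H2-M3. They were taken by name from a count table of whole mouse corneas, and all 9 were found among its 34142 gene rows. Corneas came from Aire knockout mice that received topical PBS (KO + PBS, n = 4), from untreated Aire knockout mice (KO, n = 2) and from untreated wild type mice (WT, n = 3). Aire is the thymic transcription factor that exposes developing T cells to tissue proteins, and the series uses its knockout to model dry eye. PBS is phosphate-buffered saline, and KO + PBS and KO share the knockout genotype. Titles read 5 wk for untreated samples and 24 hr for PBS samples, while the design text has mice of 6 wk sampled on day 7. The sources used here do not state the strain, the deleted part of Aire, or whether a sample was 1 mouse or a pool. The replicates are called biological without saying that they are separate animals, so a p-value speaks only of the spread among these libraries. A Lacripep group named in the series design was not analysed here.

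A class I molecule is a heavy chain held with the light chain that B2m encodes, and it carries a short peptide to the cell surface. Peptides cut by the proteasome reach it through the TAP transporter, and CD8 T cells and natural killer cells inspect the complex. Nearly every nucleated cell makes class I molecules, and interferons raise their genes through the coactivator Nlrc5 and interferon regulatory factors. In the normal cornea the epithelium carries more of them than the stroma or endothelium. The heavy chain genes arose by repeated duplication, so several still share long stretches of identical sequence.

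Stretches upstream of 7 of the 9 genes are shown because they hold the short sequences through which this family is known to be switched on together. They are from RefSeq's promoter table (GRCm38.p6), in which all 9 genes were matched and searched, run 5′ to 3′ on the gene's own strand, and end before RefSeq's annotated start. Capitals mark matches, found on either strand, to GGGATTCCC (enhancer A, NF-kappa-B type), TTTCACTT (interferon-stimulated response element core), GAAA followed by any 2 bases and GAAA (its direct repeat form), TGATGAC (X2 type) and CCAAT.
B2m (chr2:122147544-122147642, plus strand): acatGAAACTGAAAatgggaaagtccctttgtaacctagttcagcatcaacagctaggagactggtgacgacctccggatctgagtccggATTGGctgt
H2-K1 (chr17:34000355-34000461, minus strand): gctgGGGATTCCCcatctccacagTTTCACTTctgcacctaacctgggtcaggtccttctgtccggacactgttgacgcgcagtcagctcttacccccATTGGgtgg
H2-Q4 (chr17:35379460-35379570, plus strand): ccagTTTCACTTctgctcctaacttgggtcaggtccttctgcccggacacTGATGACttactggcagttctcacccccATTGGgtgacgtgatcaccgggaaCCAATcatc
H2-Q6 (chr17:35424674-35424803, plus strand): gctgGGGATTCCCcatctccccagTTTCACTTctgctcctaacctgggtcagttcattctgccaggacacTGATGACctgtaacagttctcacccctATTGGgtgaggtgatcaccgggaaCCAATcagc
H2-Q7 (chr17:35439019-35439147, plus strand): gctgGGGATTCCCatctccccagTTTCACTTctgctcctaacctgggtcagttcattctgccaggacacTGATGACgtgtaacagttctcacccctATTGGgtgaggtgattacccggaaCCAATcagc
H2-T22 (chr17:36042797-36042937, minus strand): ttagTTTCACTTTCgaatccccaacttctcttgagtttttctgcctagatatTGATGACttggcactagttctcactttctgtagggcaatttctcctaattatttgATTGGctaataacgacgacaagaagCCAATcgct
H2-M3 (chr17:37270101-37270219, plus strand): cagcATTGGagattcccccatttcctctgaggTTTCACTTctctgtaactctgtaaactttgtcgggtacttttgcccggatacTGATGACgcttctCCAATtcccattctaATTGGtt

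TTTCACTT was present upstream of 7 of the 9 genes, all but B2m and H2-T23, and in 1.36% of 32851 promoters searched over the same length. The direct repeat was found upstream of B2m, H2-T22 and H2-T23 and in 2.98% of the promoters, and in H2-T22 it overlaps the TTTCACTT match on the other strand. GGGATTCCC was found upstream of H2-K1, H2-D1, H2-Q6 and H2-Q7 and in 0.301% of the promoters. TGATGAC was found upstream of 6 genes, H2-D1, H2-Q4, H2-Q6, H2-Q7, H2-T22 and H2-M3, and in 2.69% of the promoters. CCAAT was found upstream of all 9, and 33.85% of all promoters hold it. A match describes the letters in this window and is not a measured binding site.

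**Figure D1:**
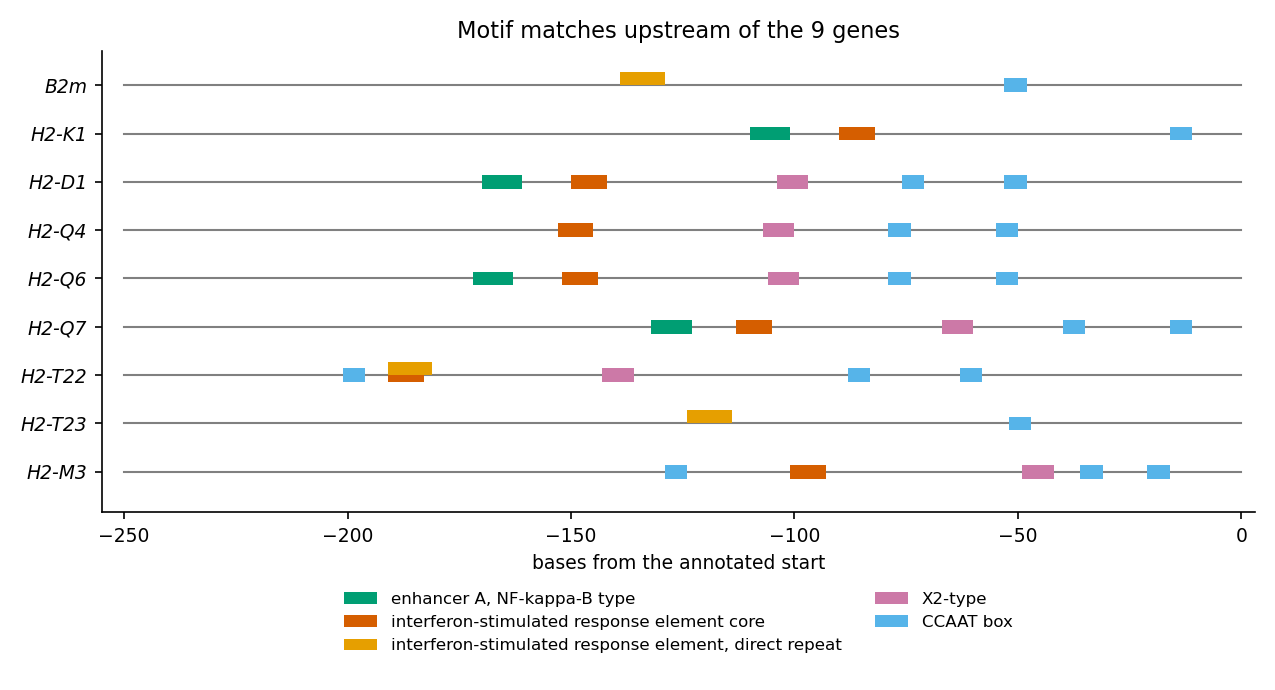
Matches to the 5 searched sequences, by distance in bases upstream of the annotated start of each gene (0 is the start). An interferon-stimulated response element match of either form lies upstream of each of the 9 genes, and CCAAT matches lie nearest to the start.

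B2m lies on chromosome 2 (122147686 to 122153083 in GENCODE M21, build GRCm38) and the 8 heavy chain genes on chromosome 17. H2-K1 spans 33996017 to 34000347, H2-D1 35262730 to 35267499, H2-Q4 35379617 to 35385290, H2-Q6 35424850 to 35430055, H2-Q7 35439155 to 35443773, H2-T23 36029773 to 36032855, H2-T22 36037128 to 36042747 and H2-M3 37270220 to 37274484. GENCODE's start of H2-D1 and of H2-T23 lies farther upstream than RefSeq's, so their matches lie in exons of the GENCODE gene, and these 2 stretches are not printed. Antisense genes overlap the exons of a pair of members. Gm11131 covers 19.1% of the exon bases of H2-Q4 and A930015D03Rik 29.4% of those of H2-T22. The sources used here do not state the strand setting of the counting, so reads from either side cannot be told apart in these stretches.

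Shared sequence limits how the counts of single heavy chains can be read. Aligned over the coding sequence, H2-Q6 and H2-Q7 were 95.4% identical and H2-K1 and H2-D1 91.5%. The longest identical runs of these pairs, on the coding strand of the GENCODE M21 transcripts, are printed with the 60 bases in which H2-K1 and H2-D1 differ most, where capitals mark the 15 differing bases.
H2-Q6 and H2-Q7, 265 identical bases (coding positions 605 to 869): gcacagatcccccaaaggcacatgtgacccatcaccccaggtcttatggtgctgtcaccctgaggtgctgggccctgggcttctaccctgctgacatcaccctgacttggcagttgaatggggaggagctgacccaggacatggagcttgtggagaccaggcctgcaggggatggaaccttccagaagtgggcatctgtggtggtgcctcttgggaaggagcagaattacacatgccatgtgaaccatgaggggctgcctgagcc
H2-K1 and H2-D1, 91 identical bases (coding positions 738 to 828 of H2-K1): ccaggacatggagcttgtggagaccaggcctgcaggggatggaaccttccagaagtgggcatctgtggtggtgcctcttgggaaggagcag
H2-K1 (coding positions 492 to 551): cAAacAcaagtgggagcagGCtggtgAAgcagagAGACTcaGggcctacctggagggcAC
H2-D1 (coding positions 501 to 560): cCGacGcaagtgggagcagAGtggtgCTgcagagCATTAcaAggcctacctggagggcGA

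Windows of 50 bases of each transcript were searched exactly, on either strand, in the transcripts of all other genes. The share found was 46.4% for H2-T22, 40.2% for H2-Q7, 39.2% for H2-Q4, 36.8% for H2-Q6 and 29.8% for H2-T23. The share found in other members was 11.75% for H2-Q4, 8.855% for H2-T23 and 31.3% for H2-Q6. The top match of H2-Q4 was its overlapping antisense gene Gm11131 (16.06%). Windows of H2-Q4, H2-T23 and H2-D1 were found in 145, 172 and 168 other genes, many of them outside the class I family. The share found in any other gene was 14.3% for H2-D1, 8.79% for H2-K1, 0.576% for H2-M3 and 0% for B2m. With 100-base windows the shares were 14.8% for H2-T22, 21.9% for H2-Q7, 13.9% for H2-Q4, 19.3% for H2-Q6, 7.28% for H2-T23, 4.64% for H2-D1 and 0% for H2-K1, H2-M3 and B2m. The counts of B2m and H2-M3 thus rest almost wholly on sequence of their own. H2-T22 shares most with H2-T10 (39.3% of its 50-base windows), and H2-Q6 with H2-Q7 (30.5%). The sources used here do not state how the authors counted reads that map to several places, nor the read length.

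**Figure D2:**
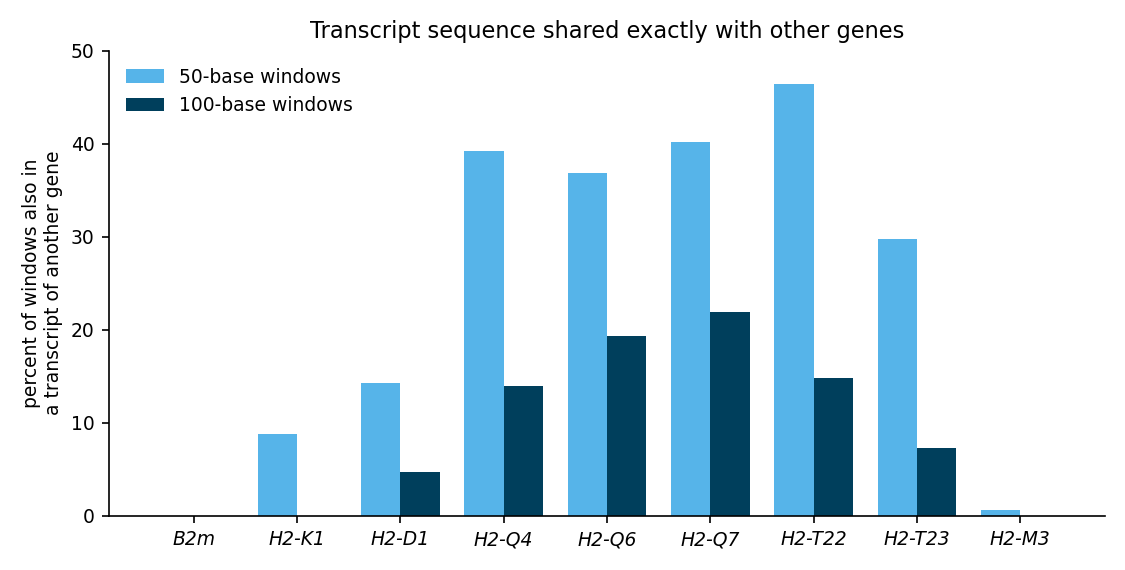
Percent of each transcript's windows of 50 and of 100 bases that occur exactly, on either strand, in a transcript of another gene. B2m stands at 0 with both window lengths, and H2-T22 is highest with 50 bases at 46.4%.

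Library totals ran from 22913807 to 27079143 counts in KO + PBS, 25345603 and 68512972 in KO, and 38316117 to 104480485 in WT. Aire itself had 7, 9, 7 and 2 counts in KO + PBS, 0 and 3 in KO, and 4, 16 and 3 in WT, too few to check the genotype labels. The corneal epithelial keratin gene Krt12 had 3749 to 6018 CPM (counts scaled to TMM-adjusted library size) in KO + PBS, 22434 and 38293 in KO and 27791 to 33176 in WT, and no gene of the 3 corneal marker lists was at 0 throughout a group. The PBS libraries hold another kind of counts than the untreated ones. Processed pseudogenes took 0.289 to 0.361% of the counts in KO + PBS, 17.6 and 19.0% in KO and 20.6 to 22.1% in WT, and mitochondrial genes 0.797 to 6.13% in KO + PBS, against 0 counts in KO and WT, which allow up to 0.118 CPM for counting error. Treatment and library kind cannot be told apart wherever KO + PBS is compared, and KO against WT compares libraries of 1 kind. In bulk tissue, fewer cells of a type and less RNA per cell cannot be told apart.

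On the RPKM scale, which is CPM divided by the length of the exons in kilobases, B2m stood first and H2-D1 after it in each group. The mean levels in KO + PBS (n = 4) were 1203 ± 558 RPKM for B2m, 446 ± 162 for H2-D1, 47.0 ± 17.1 for H2-Q4, 35.4 ± 19.8 for H2-Q6, 16.7 ± 5.30 for H2-K1, 11.3 ± 7.21 for H2-Q7, 6.18 ± 3.74 for H2-M3, 6.14 ± 2.71 for H2-T23 and 3.96 ± 1.77 for H2-T22 (SD). H2-D1 and H2-Q4 were the only neighbours in that order whose libraries did not overlap. In KO (n = 2) the mean levels were 2631 ± 544 RPKM for B2m, 869 ± 159 for H2-D1, 522 ± 116 for H2-K1, 109 ± 70.5 for H2-Q6, 96.3 ± 60.3 for H2-Q4, 42.2 ± 16.8 for H2-T22, 39.3 ± 11.2 for H2-T23, 36.0 ± 22.6 for H2-Q7 and 5.92 ± 1.54 for H2-M3 (SD). B2m, H2-D1 and H2-K1 stood apart from each other and from the rest, H2-M3 stood apart at the low end, and the 5 genes between overlapped with their neighbours. In WT (n = 3) the mean levels were 270 ± 63.7 RPKM for B2m, 196 ± 11.7 for H2-D1, 56.9 ± 11.6 for H2-K1, 14.6 ± 1.16 for H2-Q4, 12.5 ± 0.370 for H2-Q6, 12.4 ± 1.19 for H2-T23, 9.66 ± 1.53 for H2-T22, 3.58 ± 0.0944 for H2-Q7 and 2.24 ± 0.233 for H2-M3 (SD). Only H2-Q6 with H2-T23 and H2-T23 with H2-T22 overlapped there. With these lengths H2-K1 took the third place in KO and in WT, and the fifth in KO + PBS. The exons of H2-Q7 together span 4265 bases against 1497 in its chosen coding transcript, and those of H2-K1 2938 against 1619. For B2m both lengths are 860. The order of genes, and whether neighbours overlap, can therefore turn on the length used. All levels of single heavy chains carry the limit of shared sequence given above.

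KO against WT addresses the effect of losing Aire in corneas that received nothing. The level of every one of the 9 genes was higher in both KO libraries than in all 3 WT libraries, and in the model fitted to all 9 libraries B2m, H2-K1, H2-D1, H2-Q4, H2-Q6 and H2-Q7 rose. That is 6 of 9, against 0.963% of all 18489 genes tested that rose (edgeR quasi-likelihood test, Benjamini-Hochberg adjusted p under 0.05). In a model of the 5 untreated libraries, 9 of 9 rose, against 11.5% of 18006 genes. For comparison, 24.9% of all genes were higher in KO without overlap between the libraries. The median log2 fold change of the 9 genes was 2.73, and that of all genes -0.02.

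B2m, the light chain that all these heavy chains need, had 2593 and 1931 CPM in the KO libraries and 291, 224 and 182 CPM in the WT libraries. The lower KO library was far above the highest WT library. B2m rose by a log2 fold change of 3.28 ± 0.45 (SE), a 9.74-fold difference (adjusted p = 0.0221 over all 9 libraries and 0.000586 over the untreated libraries). B2m is also the member whose counts are free of shared sequence at both window lengths.

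Of the classical heavy chains, which present peptides to CD8 T cells, H2-K1 had 1775 and 1294 CPM in KO and 202, 166 and 134 CPM in WT. H2-D1 had 2531 and 1949 CPM in KO and 515, 528 and 470 CPM in WT. Neither gene's groups overlapped, and KO replicate 1 was the higher KO library for both. H2-K1 rose by 3.20 ± 0.32 on the log2 scale (9.18-fold, edgeR adjusted p = 0.0143). H2-D1 rose by 2.15 ± 0.32 (4.44-fold, adjusted p = 0.0253). The ratio of H2-K1 to H2-D1 counts was 0.702 and 0.664 in KO against 0.392, 0.315 and 0.284 in WT, so that H2-K1 made up 32.0 and 34.1% of the heavy chain counts in KO and 18.01 to 22.99% in WT. The exact permutation test of that ratio (2 against 3 libraries, two-sided) gave p = 0.2, the smallest p that design allows.

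Of the Q region, H2-Q6 and H2-Q7 encode Qa-2 type molecules, and H2-Q4 is a nonclassical neighbour. H2-Q4 had 361 and 139 CPM in KO and 40.1, 38.8 and 34.4 CPM in WT. H2-Q6 had 332 and 124 CPM in KO and 25.8, 26.9 and 25.4 CPM in WT. H2-Q7 had 222 and 85.3 CPM in KO and 14.8, 15.6 and 15.3 CPM in WT. The WT libraries lay close together, the groups did not overlap, and KO replicate 1 was far above KO replicate 2 for these 3 genes. They rose by 2.73 ± 0.42, 3.13 ± 0.53 and 3.33 ± 0.57 on the log2 scale for H2-Q4, H2-Q6 and H2-Q7 in that order (edgeR adjusted p = 0.0256, 0.0316 and 0.0318). Since H2-Q6 and H2-Q7 share long identical runs, their values are not separate measurements. The H2-Q6 to H2-Q7 count ratio was 1.499 and 1.46 in KO and 1.74, 1.72 and 1.66 in WT.

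The T and M region members had the smallest log2 fold changes of KO over WT, though H2-T22 (2.13 ± 0.45) hardly differed from H2-D1 (2.15 ± 0.32). H2-T23 encodes Qa-1, which shows leader peptides of other class I chains to CD94-NKG2 receptors of natural killer cells, and had 136 and 90.6 CPM in KO and 38.7, 36.7 and 32.1 CPM in WT. H2-T22, whose product is a ligand of some gamma delta T cell receptors, had 184 and 103 CPM in KO and 38.5, 32.3 and 28.1 CPM in WT. H2-M3, which presents N-formylated peptides of bacteria and mitochondria, had 10.07 and 6.94 CPM in KO and 3.58, 3.16 and 2.92 CPM in WT. None of the 3 genes had overlapping groups, yet their log2 fold changes of 1.66 ± 0.40, 2.13 ± 0.45 and 1.40 ± 0.47 for H2-T23, H2-T22 and H2-M3 did not pass over all 9 libraries (edgeR adjusted p = 0.0744, 0.0528 and 0.165). All 3 rose in the fit to the untreated libraries (adjusted p = 0.00239, 0.00364 and 0.0075). A difference in response between these members and the classical ones was not tested.

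**Figure D3:**
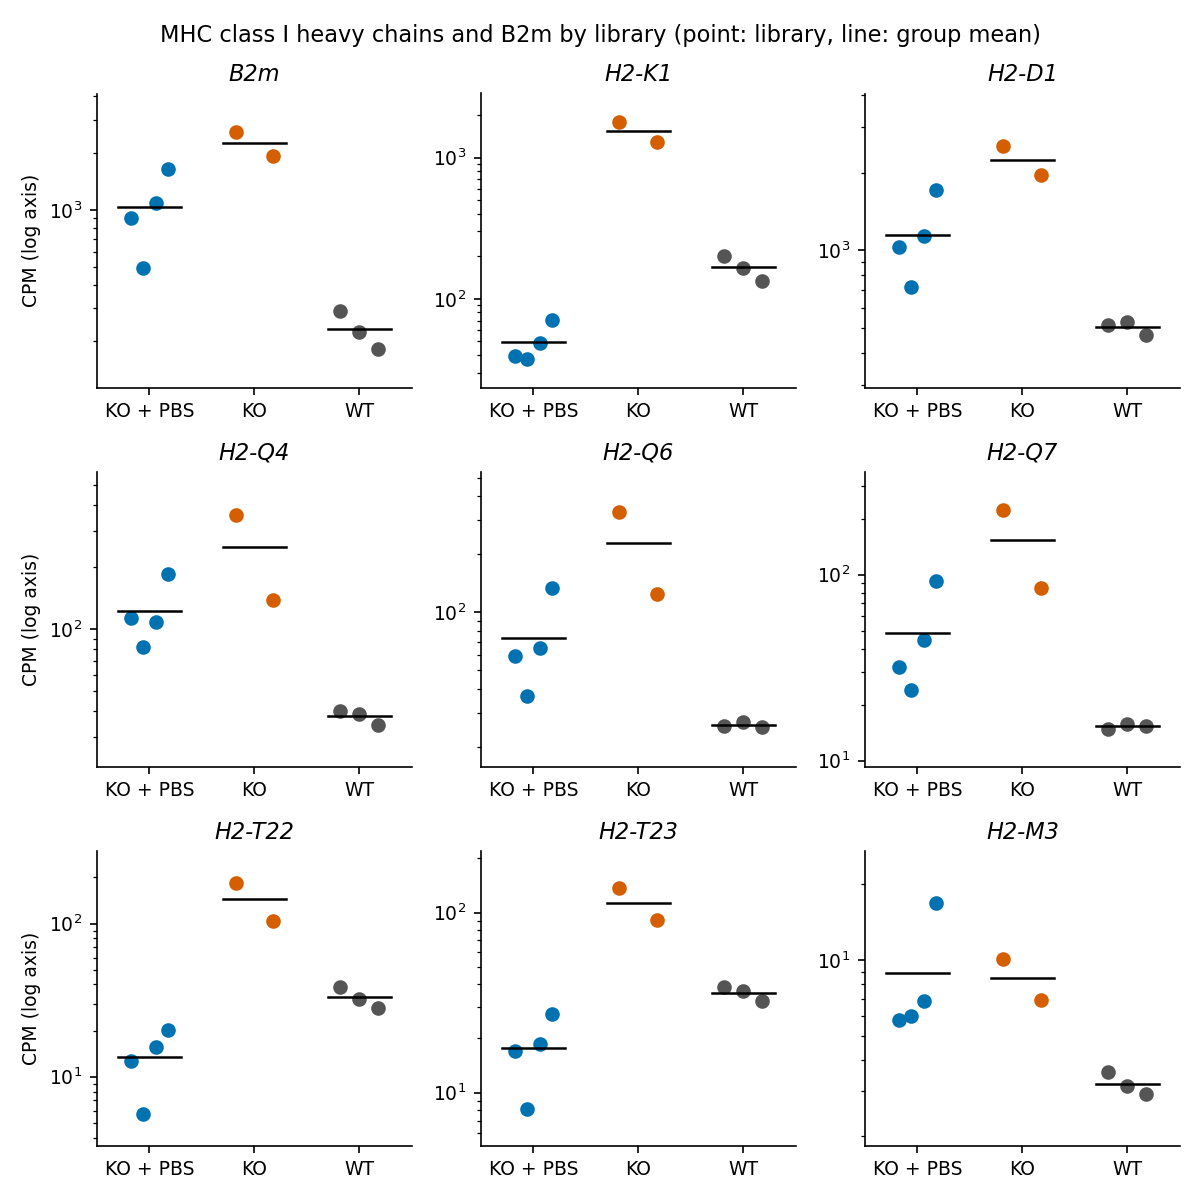
Level of each gene in every library, in CPM on a log axis, for KO + PBS, KO and WT; points are libraries and lines are group means. Both KO points lie above all WT points in each of the 9 panels, and in the H2-K1, H2-T22 and H2-T23 panels all KO + PBS points lie below the WT points.

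The calls of KO against WT depend on which libraries enter the model. In the model of all 9 libraries, leaving out any 1 WT library left 0 of 9 members called (edgeR adjusted p = 0.1025 to 0.4079), although 8 or 9 still had an unadjusted p under 0.05. In the model of the untreated libraries 9 of 9 rose whichever 1 WT library was left out. The calls over all genes in these fits are given in the closing section. Leaving out a KO library leaves 1 KO library with no spread of its own, so its calls are not counted here. All 9 log2 fold changes stayed above 0 in each of the 24 alternative settings.

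Marker sums of other cells also differed between the KO and WT libraries. The 12 T cell genes summed to 39.7 and 24.9 CPM in KO and 3.90 to 4.94 CPM in WT, and the 8 cytotoxic and natural killer cell genes to 6.52 and 4.63 CPM in KO and 0.216 to 0.931 CPM in WT. The 7 genes of all leukocytes summed to 148 and 108 CPM in KO and 48.1 to 59.7 CPM in WT, the 8 dendritic cell genes to 108 and 87.1 CPM in KO and 30.7 to 37.1 CPM in WT, and the 7 neutrophil genes to 123 and 27.7 CPM in KO and 6.09 to 13.6 CPM in WT. The 11 monocyte and macrophage genes summed to 613 and 473 CPM in KO and 384 to 409 CPM in WT. The 6 B cell genes summed to 4.89 and 6.90 CPM in KO and 1.81 to 2.83 CPM in WT. Single genes weighed heavily in some sums. Itgam of the monocyte and macrophage list had 204 and 98.1 CPM in KO and 39.4 to 55.4 CPM in WT. Over all 9 libraries, 7 of the 11 genes of that list had a log2 fold change above 0. Fscn1 held most of the dendritic cell sum, with 97.3 and 82.0 CPM in KO and 28.1 to 34.7 CPM in WT. No gene of these lists was at 0 throughout a group. Over the untreated libraries 10 of 10 tested T cell genes, 3 of 4 cytotoxic and natural killer cell genes, 4 of 7 leukocyte genes, 3 of 6 dendritic cell genes, 4 of 6 neutrophil genes, 2 of 4 B cell genes and 2 of 11 monocyte and macrophage genes rose, and 1 of the last list fell. In that fit 11.5% of all genes rose and 8.99% fell. The genes tested were 10 of the 12 T cell genes and 4 of the 8 cytotoxic and natural killer cell genes. Some of them, such as Cd3e and Cd6, were near 0 in WT and passed the count filter through the KO libraries. The filter thus partly fixed the direction of these counts, which are not support for a rise. Over all 9 libraries Fscn1 of the dendritic cell list was the only gene of these 7 lists that passed the test. The 8 corneal stroma genes summed to 2875 and 3879 CPM in KO and 10522 to 11564 CPM in WT, and the 6 corneal endothelium genes to 486 and 398 CPM in KO and 1073 to 1115 CPM in WT. Of the stroma genes 4 of 8 fell over all 9 libraries and 7 of 8 over the untreated libraries, and of the endothelium genes 1 of 6 and 5 of 6, against 0.703% and 8.99% of all genes that fell in these fits. The 8 corneal epithelium genes summed to 71207 and 104762 CPM in KO and 84470 to 97890 CPM in WT. The 6 blood vessel genes summed to 33.9 and 35.8 CPM in KO and 36.7 to 45.6 CPM in WT. The part of these cell types in the class I difference was not tested.

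Genes that work with class I were read beside the members. Of 13 genes of peptide supply and loading, 2 rose in KO over all 9 libraries and 10 over the untreated libraries. Of all genes 0.963% and 11.5% rose in these fits. The median log2 fold change of the 13 genes was 1.06. Psmb8, a catalytic subunit of the immunoproteasome, had 584 and 578 CPM in KO and 137, 148 and 119 CPM in WT (log2 fold change 2.11 ± 0.36, edgeR adjusted p = 0.0316). Tap2, a subunit of the peptide transporter, had 211 and 191 CPM in KO and 63.2, 65.0 and 59.4 CPM in WT (1.69 ± 0.31, adjusted p = 0.0386). Its partner Tap1 had 286 and 183 CPM in KO and 52.3, 52.2 and 46.0 CPM in WT, a log2 fold change of 2.22 ± 0.48 (adjusted p = 0.0556 over 9 libraries and 0.0011 over the untreated ones). The immunoproteasome gene Psmb9 had 261 and 183 CPM in KO and 47.1, 50.6 and 39.1 CPM in WT (2.28 ± 0.55, adjusted p = 0.0738). KO libraries were above WT libraries without overlap for all 4 genes.

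Of 16 transcription factors of class I genes, 2 rose over all 9 libraries and 8 over the untreated libraries, against 0.963% and 11.5% of all genes. The median log2 fold change of the 16 genes was 0.43. Nlrc5, the class I coactivator, had 44.1 and 23.3 CPM in KO and 1.14, 0.637 and 0.406 CPM in WT, on 15 to 52 counts in the WT libraries. It rose by 5.55 ± 0.71 on the log2 scale (edgeR adjusted p = 0.0216), more than any of the 9 class I members in size. Stat2, of the interferon-activated complex, had 158 and 130 CPM in KO and 35.6, 30.8 and 21.5 CPM in WT (2.30 ± 0.42, adjusted p = 0.0385). Irf1 had 520 and 439 CPM in KO and 191, 199 and 190 CPM in WT (1.31 ± 0.34, adjusted p = 0.0913). KO libraries lay above WT libraries without overlap for these 3 genes, of which Nlrc5 and Stat2 passed the test.

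The listed interferon genes had few counts, at most 37 in any library (Ifnl3 in KO + PBS replicate 2, 1.05 CPM). Ifng, the T cell and natural killer cell interferon, had 2, 6, 8 and 31 counts in KO + PBS, 12 and 6 in KO and 0 in each WT library, and 0 counts allow up to 0.0287 to 0.0783 CPM before TMM scaling. Ifnb1 had at most 3 counts in any library. Of 7 tested genes of interferons and their receptors, 0 rose over all 9 libraries in KO (edgeR, 5 at an unadjusted p under 0.05). Over the untreated libraries 4 of 6 rose. The gamma receptor gene Ifngr1 had the smallest adjusted p over all 9 libraries (1.32 ± 0.31, edgeR adjusted p = 0.0688). Of 9 tested genes of receptors that bind class I, 0 passed over all 9 libraries (edgeR, 5 at an unadjusted p under 0.05). Over the untreated libraries 5 of 5 rose, of 23 in the table. The shares of all genes that rose were 0.963% and 11.5% in these fits. Receptor genes near 0 in WT, Cd8a and Klrd1 among them, passed the count filter through the KO libraries. The filter thus partly fixed their direction, and 5 of 5 is not support for a rise. Cd8a, the T cell coreceptor of class I, had 1.53 and 1.01 CPM in KO and 0, 0.0980 and 0.0541 CPM in WT, and its log2 fold change was 4.36 ± 1.22 (adjusted p = 0.111 over 9 libraries and 0.0086 over the untreated ones). Klrd1, the CD94 chain that binds the H2-T23 product, had 0.911 and 0.577 CPM in KO and 0.0317, 0.110 and 0.0270 CPM in WT. In both genes the KO libraries lay above the WT libraries.

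KO + PBS against KO addresses PBS treatment within the knockout, across libraries of different kind. The members split into those whose level was moderately lower in KO + PBS, those far lower, and 1 with hardly any difference. Over all 9 libraries 8 of 9 fell, against 29.7% of all genes tested, and in the fit to the groups compared only 3 of 9 fell, H2-K1, H2-T22 and H2-T23, against 22.8%. The median log2 fold change of the members was -1.63, and that of all genes -0.02. Of the 9 genes, 5 were lower in KO + PBS with no overlap between libraries, against 34.0% of all genes.

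B2m had 906, 492, 1092 and 1649 CPM in KO + PBS and 2593 and 1931 CPM in KO. H2-D1 had 1030, 718, 1135 and 1718 CPM in KO + PBS and 2531 and 1949 CPM in KO. All KO + PBS libraries of both genes lay below both KO libraries. B2m fell by 1.13 ± 0.40 on the log2 scale (edgeR adjusted p = 0.0392, and 0.104 in the fit to these groups only), and H2-D1 fell by 0.96 ± 0.30 (0.0229, and 0.0943 in the fit to these groups only). The B2m call was lost in 16 and the H2-D1 call in 11 of the 25 alternative settings, those without either KO library and with upper-quartile scaling among them, and all their fold changes stayed below 0.

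H2-K1 had 39.1, 37.6, 48.8 and 71.3 CPM in KO + PBS and 1775 and 1294 CPM in KO. The highest KO + PBS library was thus far below the lower KO library. H2-K1 fell by 4.96 ± 0.30 on the log2 scale, a 31.2-fold difference (edgeR adjusted p = 1.2e-06), and this call held in each of the 25 alternative settings. The 2 classical genes therefore had unlike values in KO + PBS. The ratio of H2-K1 to H2-D1 counts was 0.0380, 0.0523, 0.0430 and 0.0415 in KO + PBS and 0.702 and 0.664 in KO, and in the exact permutation test (4 against 2 libraries, two-sided) it gave p = 0.133, the smallest that design allows. H2-K1 took 2.98 to 4.09% of the heavy chain counts in KO + PBS and 32.0 and 34.1% in KO.

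The T region genes were also far lower. H2-T22 had 12.7, 5.68, 15.6 and 20.1 CPM in KO + PBS and 184 and 103 CPM in KO. H2-T23 had 17.1, 8.12, 18.5 and 27.2 CPM in KO + PBS and 136 and 90.6 CPM in KO. Neither gene's groups overlapped. H2-T22 fell by 3.41 ± 0.42 on the log2 scale (edgeR adjusted p = 0.000145) and H2-T23 fell by 2.68 ± 0.37 (adjusted p = 0.000327), and both calls held in each of the 25 alternative settings. H2-T22 counts relative to those of its near copy H2-T10 were 0.350, 0.247, 0.336 and 0.353 in KO + PBS and 1.02 and 0.954 in KO.

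The Q region genes overlapped between the groups. H2-Q4 had 114, 81.7, 108 and 185 CPM in KO + PBS and 361 and 139 CPM in KO. H2-Q6 had 59.7, 37.0, 65.6 and 133 CPM in KO + PBS and 332 and 124 CPM in KO. H2-Q7 had 31.8, 24.1, 44.6 and 92.6 CPM in KO + PBS and 222 and 85.3 CPM in KO. In each case KO + PBS replicate 4 was above KO replicate 2. H2-Q4 fell by 1.03 ± 0.38, H2-Q6 fell by 1.63 ± 0.48 and H2-Q7 fell by 1.67 ± 0.51 on the log2 scale (edgeR adjusted p = 0.0472, 0.0181 and 0.0210, in that order). The H2-Q4 call was lost in 17 of the 25 settings. Without KO replicate 1 all 3 calls were lost, with log2 fold changes of -0.10, -0.66 and -0.72. H2-M3 had 5.76, 5.99, 6.88 and 16.9 CPM in KO + PBS and 10.07 and 6.94 CPM in KO, a log2 fold change of 0.07 ± 0.45 (adjusted p = 0.915) whose sign turned in 7 of 25 alternative settings.

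The comparison of KO + PBS with WT uses the same KO + PBS libraries as the comparison with KO. Here 6 members rose and 3 fell over all 9 libraries, against 27.1% of all genes that rose and 30.0% that fell, and no member's groups overlapped (26.7% of all genes were higher and 33.5% lower in KO + PBS without overlap). B2m rose by 2.16 ± 0.39 on the log2 scale (4.45-fold, edgeR adjusted p = 0.00138), with 492 CPM in the lowest KO + PBS library against 291 CPM in the highest WT library. H2-D1 rose by 1.19 ± 0.28, H2-Q4 by 1.69 ± 0.37, H2-Q6 by 1.504 ± 0.46, H2-Q7 by 1.66 ± 0.49 and H2-M3 by 1.46 ± 0.41 (adjusted p = 0.00379 to 0.0200). H2-K1 went the other way: all 4 KO + PBS libraries, at 71.3 CPM or less, lay below the lowest WT library at 134 CPM, and the gene fell by 1.76 ± 0.26 (adjusted p = 0.000432). H2-T22 fell by 1.29 ± 0.38 and H2-T23 by 1.02 ± 0.34 (adjusted p = 0.0164 and 0.0291). The members that fell against WT are those with the largest differences between KO + PBS and KO. The H2-Q6, H2-Q7 and H2-T23 calls were lost whichever 1 WT library was left out, that of H2-M3 without WT replicate 2 or 3, and that of H2-T22 without WT replicate 1 (edgeR adjusted p = 0.0519 to 0.0847). The H2-T23 call was also lost without KO + PBS replicate 1 or 3. In the fit to these groups only, again 6 rose and 3 fell, against 27.8% and 29.4% of 17527 genes.

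**Figure D4:**
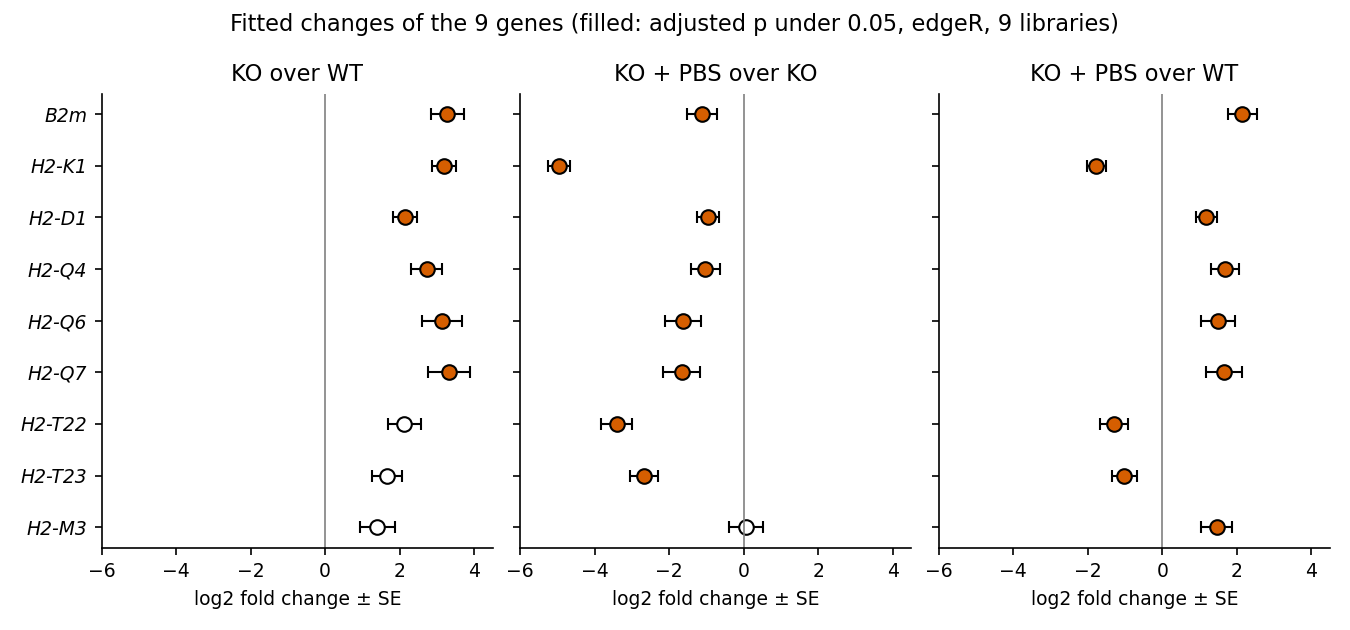
Fitted log2 fold changes (points) ± SE (bars) of the 9 genes in the 3 comparisons, with filled points for an adjusted p under 0.05 in the fit to all 9 libraries. H2-K1, H2-T22 and H2-T23 lie left of 0 in both comparisons with KO + PBS, and all 9 genes lie right of 0 in KO over WT.

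As a share of all counts, the 9 genes held 0.255, 0.217, 0.335 and 0.521% in KO + PBS, 0.670 and 0.406% in KO, and 0.0962, 0.0837 and 0.0790% in WT. Light chain counts per heavy chain count were 0.691, 0.535, 0.757 and 0.728 in KO + PBS, 0.467 and 0.509 in KO, and 0.331, 0.265 and 0.245 in WT. On that measure the 3 groups did not overlap, with KO + PBS highest and WT lowest. Against H2-D1 counts alone, B2m counts stood at 0.684 to 0.962 in KO + PBS, 0.991 and 1.02 in KO, and 0.387 to 0.564 in WT. On this second ratio, which was not tested, KO was highest. The order of KO + PBS and KO thus turned on which heavy chains were counted. H2-D1 took 75.9 to 78.7% of heavy chain counts in KO + PBS, 45.6 and 51.4% in KO and 58.6 to 63.4% in WT. H2-T22 took 0.618 to 1.08% in KO + PBS, 2.73 and 3.32% in KO and 3.78 to 4.38% in WT. Over 12 exact permutation tests of such count ratios between the groups, two-sided, the smallest p was 0.0571 (4 against 3 libraries, the smallest that design allows) and the smallest Benjamini-Hochberg adjusted p was 0.2286.

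**Figure D5:**
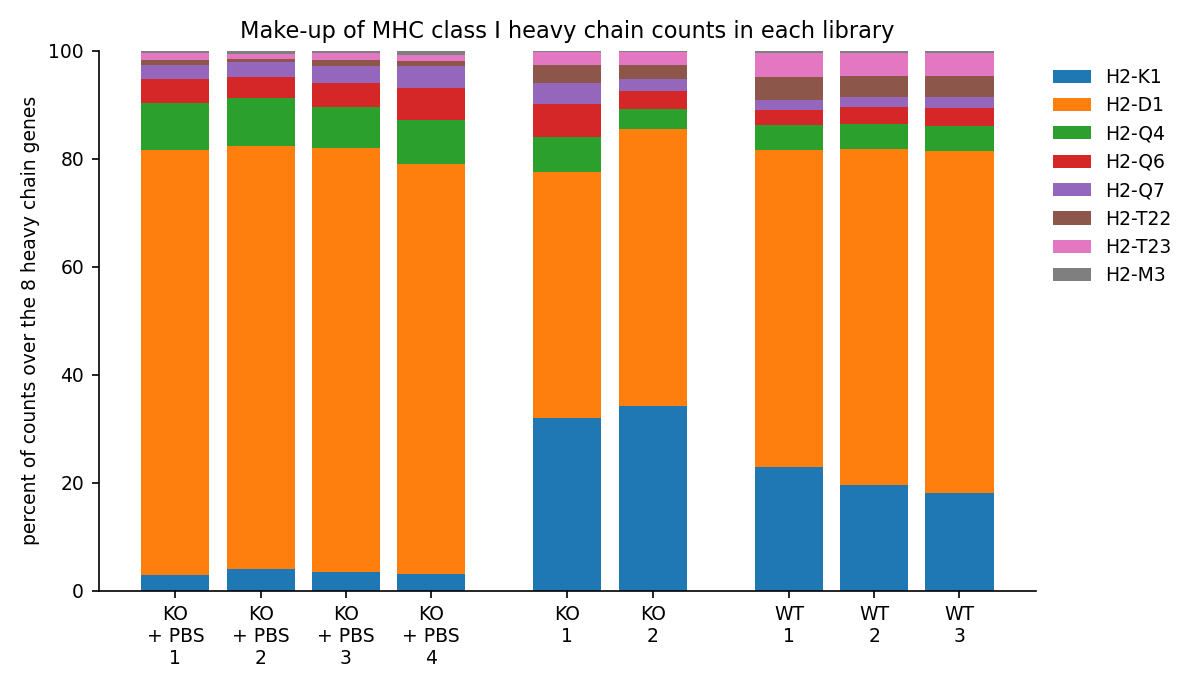
Share of each of the 8 heavy chain genes in their summed counts, in percent, 1 bar per library. H2-K1 takes 2.98 to 4.09% in KO + PBS, where H2-D1 takes at least 75.9%, against 32.0 and 34.1% in KO.

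KO + PBS replicate 4 was the highest of its group for all 9 genes, and replicate 2 the lowest for all but H2-M3. Replicate 4 was also highest in T cell genes (87.8 CPM against 6.21 to 13.2 CPM in the other 3 libraries) and in the genes of all leukocytes (248 CPM against 20.1 to 54.5 CPM). Replicate 2 had 6.13% mitochondrial counts against 0.797 to 0.924% in the others, the highest stroma sum (7506 CPM against 1340 to 4014 CPM) and the lowest epithelium sum (26715 CPM against 45355 to 56866 CPM). The part of these differences in the class I values was not tested. Without replicate 4, 8 members fell against KO over the remaining 8 libraries, and 6 rose and 3 fell against WT.

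Other class I rows of the table were set beside the members, since reads of shared sequence can fall to either. Of 20 such rows, 11 passed the count filter and were tested. Over all 9 libraries 5 of 11 rose in KO against WT: H2-Q5, H2-Q1, H2-T10, H2-Q10 and H2-K2 (0.963% of all genes rose). Against KO, 8 of 11 fell in KO + PBS (29.7% of all genes fell). Against WT 2 rose and 6 fell (27.1% and 30.0% of all genes). H2-Q5, which shares 20.1% of the 50-base windows of H2-Q7, had 0, 0, 0 and 1 counts in KO + PBS, 1734 and 1064 in KO, and 228, 618 and 278 in WT. H2-Q5 thus passed the count filter through the untreated libraries, which partly fixed its direction in the comparisons with KO + PBS. H2-K2 had 39, 32, 82 and 131 counts in KO + PBS, 5141 and 4765 in KO, and 848, 1872 and 791 in WT. H2-Q10 had 11, 11, 16 and 35 counts in KO + PBS, 2441 and 1754 in KO, and 334, 1011 and 425 in WT. The KO counts of these 3 genes lay far above those of KO + PBS.

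The H2-M10 genes had almost equal counts as each other. H2-M10.2, H2-M10.3, H2-M10.4, H2-M10.5 and H2-M10.6 had 26 or 27 counts each in KO replicate 1, 17 each in KO replicate 2, and 6 or 7, 7 and 1 in WT replicates 1 to 3. In KO + PBS they had 0 to 4. The MHC is also highly polymorphic, and the reference is the C57BL/6 genome. H2-Ea-ps, the class II alpha chain row that the C57BL/6 haplotype does not express, had at most 1 count in every library. Its partner H2-Eb1 had 525 to 8005 counts in KO + PBS, 3820 and 6627 in KO, and 1310 to 3382 in WT. The MHC haplotype of these mice is not stated in the sources used here, and these counts do not settle it.

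The genes that work with class I did not go as 1 block in KO + PBS. Of the 13 genes of peptide supply and loading, 8 fell and 1 rose against KO (29.7% of all genes fell and 23.6% rose). Against WT, 4 rose and 1 fell (27.1% of all genes rose and 30.0% fell). The gene that rose against KO was Canx, the chaperone calnexin that folds new heavy chains (log2 fold change 1.75 ± 0.21, edgeR adjusted p = 0.000115). Psmb8 had 86.0, 46.4, 86.1 and 136 CPM in KO + PBS, below both KO libraries at 584 and 578 CPM, and fell by 2.71 ± 0.33 (adjusted p = 0.000145). Tap1 had 212, 63.8, 177 and 264 CPM in KO + PBS, which overlaps KO at 286 and 183 CPM, and its log2 fold change against KO was -0.39 ± 0.45 (adjusted p = 0.491). Nlrc5 had 72.1, 16.3, 31.1 and 66.7 CPM in KO + PBS and overlapped with KO at 44.1 and 23.3 CPM (0.47 ± 0.59, adjusted p = 0.529). Against WT, Nlrc5 rose by 6.02 ± 0.69 in KO + PBS (adjusted p = 8.6e-05). Of the 16 transcription factors, 5 rose and 6 fell against KO, near the shares of all genes (23.6% and 29.7%). Against WT, 9 rose and 2 fell, beside 27.1% and 30.0% of all genes.

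Marker sums of KO + PBS spread widely. The T cell genes summed to 6.21 to 87.8 CPM in KO + PBS against 24.9 and 39.7 CPM in KO, and 0 of 12 passed the test (edgeR; 0 also at an unadjusted p under 0.05). The neutrophil genes summed to 0.568 to 7.59 CPM in KO + PBS against 27.7 and 123 CPM in KO, and 4 of 5 tested fell. Of all genes 29.7% fell and 23.6% rose against KO in the fit to all 9 libraries. The epithelium genes summed to 26715 to 56866 CPM in KO + PBS against 71207 and 104762 CPM in KO. Of these, 3 of 8 fell and 1 rose, which does not stand out from those shares. The corneal endothelium genes summed to 1179 to 2933 CPM in KO + PBS against 398 and 486 CPM in KO, and 6 of 6 rose, with a median log2 fold change of 3.34 (also 6 of 6 in the fit to these groups only, against 20.7% of all genes). The stroma genes summed to 1340 to 7506 CPM in KO + PBS against 2875 and 3879 CPM in KO, and 4 of 8 rose. Against WT, 27.1% of all genes rose and 30.0% fell in KO + PBS. In that comparison 7 of 12 T cell genes, 4 of 5 cytotoxic and natural killer cell genes and 3 of 8 dendritic cell genes rose. The 2 of 7 leukocyte genes and 1 of 4 B cell genes that rose are near the share of all genes, and 2 of 5 neutrophil genes fell. The endothelium genes summed to 1179 to 2933 CPM in KO + PBS against 1073 to 1115 CPM in WT, with 3 of 6 that rose. The stroma sums of KO + PBS lay below those of WT, at 10522 to 11564 CPM, and 6 of 8 genes fell. The epithelium sums of KO + PBS also lay below those of WT, at 84470 to 97890 CPM, with 3 of 8 genes that fell and 2 that rose. Here too, immune marker genes near 0 in a group passed the count filter through the groups where they were higher, which partly fixed their direction. The part of these cell types in the class I differences was not tested.

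Genes whose pattern was most like that of B2m were ranked among 12050 genes by the root mean square difference of their centred log2 CPM, as a description. Over the 5 untreated libraries the nearest of all was H2-K1, at 0.057. Nearest outside the family were the interferon-induced GTPase genes Irgm2 (0.176) and Gbp4 (0.178), the protease inhibitor gene Timp1 (0.178), Slfn5 (0.208), Slfn2 (0.226) and Serpina3n (0.245). Timp1 had 1.84 ± 1.63 CPM in KO + PBS (SD, n = 4), 46.5 ± 3.71 CPM in KO (SD, n = 2) and 5.41 ± 0.547 CPM in WT (SD, n = 3). Over all 9 libraries the nearest genes outside the family were B3galt5 (0.391), Oasl2 (0.417), Tap1 (0.471), Oas1a (0.483), Epsti1 (0.491) and Ifi204 (0.496). H2-Q4, H2-Q6 and H2-Q7 lay at 0.413, 0.432 and 0.427 and H2-D1 at 0.517, but H2-K1 lay at 1.91 and ranked 10674. The gene nearest to B2m in the untreated libraries was therefore among the more distant ones once the KO + PBS libraries were included.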

How the data were processed

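Counts per gene were analysed for 9 RNA-seq libraries of whole mouse cornea. The deposited values are whole-number read counts, not normalized; per the submitters' processing notes the authors used fastp, STAR and featureCounts with build mm10, whose versions, annotation, strand and multimapping settings these sources do not state. Per the labels' protocols, total RNA and the NEBNext Ultra kit were used. Of 34165 names, 23 read as dates (0.0318 to 0.140% of counts) and were left out; all columns were mapped by name. Library totals of 22913807 to 104480485 set the floor of 3 counts at 0.131 to 0.0287 CPM, for counting error only.

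Genes passed filterByExpr, libraries were scaled by TMM, and edgeR 4.0.16 (limma 3.58.1, R 4.3.3) fitted 1 robust quasi-likelihood model (group means, no covariate) to all 9 libraries, or to the groups compared only. Adjusted p-values (Benjamini-Hochberg, over all genes) under 0.05 counted as calls, for which rose and fell are kept. SE is the log2 fold change over the square root of F. RPKM used the exon union of GENCODE M21 (31429 names matched, 982 through an older symbol). Count ratios were compared by exact permutation. The steps were tested on simulated counts. Alternatives were other scalings, filters, dispersions and feature sets, DESeq2 1.42.0, a replicate block and leaving out each library.

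The members and all lists were chosen with earlier results of these data known. Named are the members, from each list up to 4 tested genes with the smallest adjusted p in KO against WT, any further class I, factor or haplotype row, and the 6 genes most like B2m with a mean of at least 2 CPM. Genes outside this rule (Canx, Krt12, Ifnb1 and Ifnl3) were chosen after their values were seen. No library repeated another: the chi-square of each pair within a group was at least 18.77 per degree of freedom.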

Additional observations from a re-analysis of the deposited data

Results flagged for a closer look

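H2-M3 in KO + PBS replicate 4 had 16.9 CPM against 5.76 to 6.88 CPM in the other 3 libraries of the group, a gap of 0.900 of the group's range. The count ratio of H2-T22 to H2-T10 was 0.247 in KO + PBS replicate 2 against 0.336 to 0.353 in the other 3, a gap of 0.845 of the range. Both exceed 0.829, the 95% critical value of Dixon's test for 4 samples, which chance passes in about 1 in 20 groups; 14 values of the group were looked at.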

How the results depend on the processing

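Of the 9 genes' fold changes, only that of H2-M3 in KO + PBS against KO turned sign: -0.44 with the replicate block, -0.061 over protein-coding genes counted in every library, and over the groups compared only -0.46 with the block; without KO replicate 2 it was -0.074 (-0.085 over the groups compared), and without KO + PBS replicate 4 -0.45 (-0.39); without KO replicate 1 it was 0.45. Its adjusted p was 0.181 to 0.949 over 25 settings.

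For KO against WT, 308 genes were called over all 9 libraries, 3681 over the 5 untreated libraries and 1752 by DESeq2. Leaving out 1 library gave 0 to 2257 (0 without any WT library, 47 and 50 without KO replicates 1 and 2, 2257 without KO + PBS replicate 2, 145 without replicate 3), and over the untreated libraries 1596, 1305 and 1370 without WT replicates 1, 2 and 3, and 6290 and 5392 without KO replicates 1 and 2. Members called higher numbered 6 of 9, 0 to 8 without 1 WT or KO + PBS library, and 9 over the untreated libraries, also without 1 WT library. For KO + PBS against KO, 8 members were called lower, 5 with upper-quartile scaling, 3 over the groups compared, 3 to 8 without 1 library and 3 to 7 over the groups compared without 1. All genes called numbered 9870, and 3928 to 9504 over the groups compared without 1 library (4702 and 3928 without KO replicates 1 and 2, 6030 without KO + PBS replicate 3). For KO + PBS against WT, 6 members were called higher and 3 lower, and 3 to 6 and 1 to 3 without 1 library, also over the groups compared. DESeq2 called 8 members higher in KO, 8 lower in KO + PBS against KO, and 6 higher and 3 lower against WT. Upper-quartile scaling shifted the median of all genes to 0.168 and 0.169 in the KO + PBS comparisons. The causes were not tested.

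The replicate numbers share only a number: deviations of same-numbered libraries correlated at -0.127 and 0.00414 (KO and WT), 0.0429 and 0.132 (KO + PBS and KO) and -0.343, -0.149 and -0.0687 (KO + PBS and WT). With the replicate block, KO against WT gave 5 calls and 0 members (9 at an unadjusted p under 0.05), or 1208 calls and 8 members over the untreated libraries. KO + PBS against KO over the groups compared gave 4388 calls with the block and 5 members lower. A KO group of 2 limits every KO value. Where a lone library was left, its spread was taken from the other groups.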
